A study of Mus musculus with 8 samples.

Results

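The genes described here encode the laminin chains Lama1, Lama2, Lama4, Lama5, Lamb1, Lamb2 and Lamc1, the nidogens Nid1 and Nid2, and perlecan (Hspg2). These 10 members were taken by symbol from the 21848 genes listed for every library, and all 10 were found. Single cells were sequenced with 10x 3′ chemistry from the cortical injury site 6 days after photothrombosis (PT), a light-induced clot of cortical vessels. All 8 mice are labelled Bl/J6 and female, whereas the methods of the study give C57BL/6N and both sexes, and all were adult and had PT. The 4 control mice carried osmotic minipumps with saline, and the 4 ancrod mice received 2.4 U of ancrod per day from pumps implanted 2 days before PT. Ancrod is a snake venom enzyme that depletes fibrinogen from blood throughout the body, so the treatment was not restricted to the brain. Each mouse gave 1 library, and the labels place replicates 1 to 3 of each group in batch 1 and replicate 4 of each group in batch 2, for injury and sequencing alike.

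Basement membranes are thin sheets of extracellular matrix that wrap endothelial tubes, mural cells and the astrocyte endfeet around brain vessels. Laminins are secreted as trimers of an alpha, a beta and a gamma chain, and they polymerize into a network that binds integrins and dystroglycan on the cell surface. Nidogens and perlecan link this network to the collagen IV network, and perlecan also carries heparan sulfate chains that bind growth factors. In the brain the alpha chain differs by the cell that makes the sheet, with alpha 4 and alpha 5 known from endothelium and alpha 1 and alpha 2 from the parenchymal side and the pial surface.

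Of 46216 droplets with at least 2000 UMIs and less than 20% mitochondrial UMIs, 2144 were removed as doublets and 44072 were analysed. They held 7067 endothelial-like, 1216 pericyte-like, 213 smooth muscle-like, 2282 fibroblast-like, 3645 astrocyte-like, 17055 microglia-like and 4887 macrophage or monocyte-like cells, named from marker genes without using the members and called by class below. No oligodendrocyte cluster was found, and oligodendrocyte precursors reached 10 cells in 5 mice only. The part of the myelin removal in these numbers was not tested. Library totals ran from 97861434 to 122758649 UMIs in control mice and from 126682918 to 142139441 in ancrod mice, so depth did not overlap between the groups. Within their own class, summed markers reached 26143 to 32722 counts per 1000000 UMIs (CPM) for endothelium, 30058 to 35700 CPM for pericytes, 26580 to 40718 CPM for fibroblasts and 30835 to 35300 CPM for astrocytes. The control replicate 3 library stood apart with 34 fibroblasts and 106 astrocytes, where other mice had 107 to 638 fibroblasts and 302 to 1081 astrocytes. Of 45940 barcodes kept, 274 (0.596%) occurred in more than 1 library. Levels below are CPM of the summed UMIs of a class in a mouse, and since UMIs tag 3′ ends and intronic reads were counted, levels are compared between classes for a gene and not between genes.

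The members fell into 4 groups by the class with the highest median over the 8 mice. Lama2, Lama4, Lamc1 and Nid1 were highest in pericytes, Lama1, Lamb1 and Nid2 in fibroblasts, Lama5 and Lamb2 in smooth muscle, and Hspg2 in endothelium. In 8 of 10 members the highest class exceeded the next by a two-sided exact sign-flip test over the 8 mice (adjusted over 90 neighbouring pairs), and Lamb1 and Hspg2 were the exceptions. Of these 90 pairs, 33 passed, and 0.00781 is the smallest p that 8 sign flips can give. The classes were ordered by the medians of these same mice before neighbours were tested. No share over all genes was computed, so these counts describe the members and do not set them apart from other genes. In microglia, macrophages or monocytes, dendritic cells and T or NK cells 9 of 10 members stayed under 3 CPM in the median mouse, and Lamc1 was above it.

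**Figure D1:**
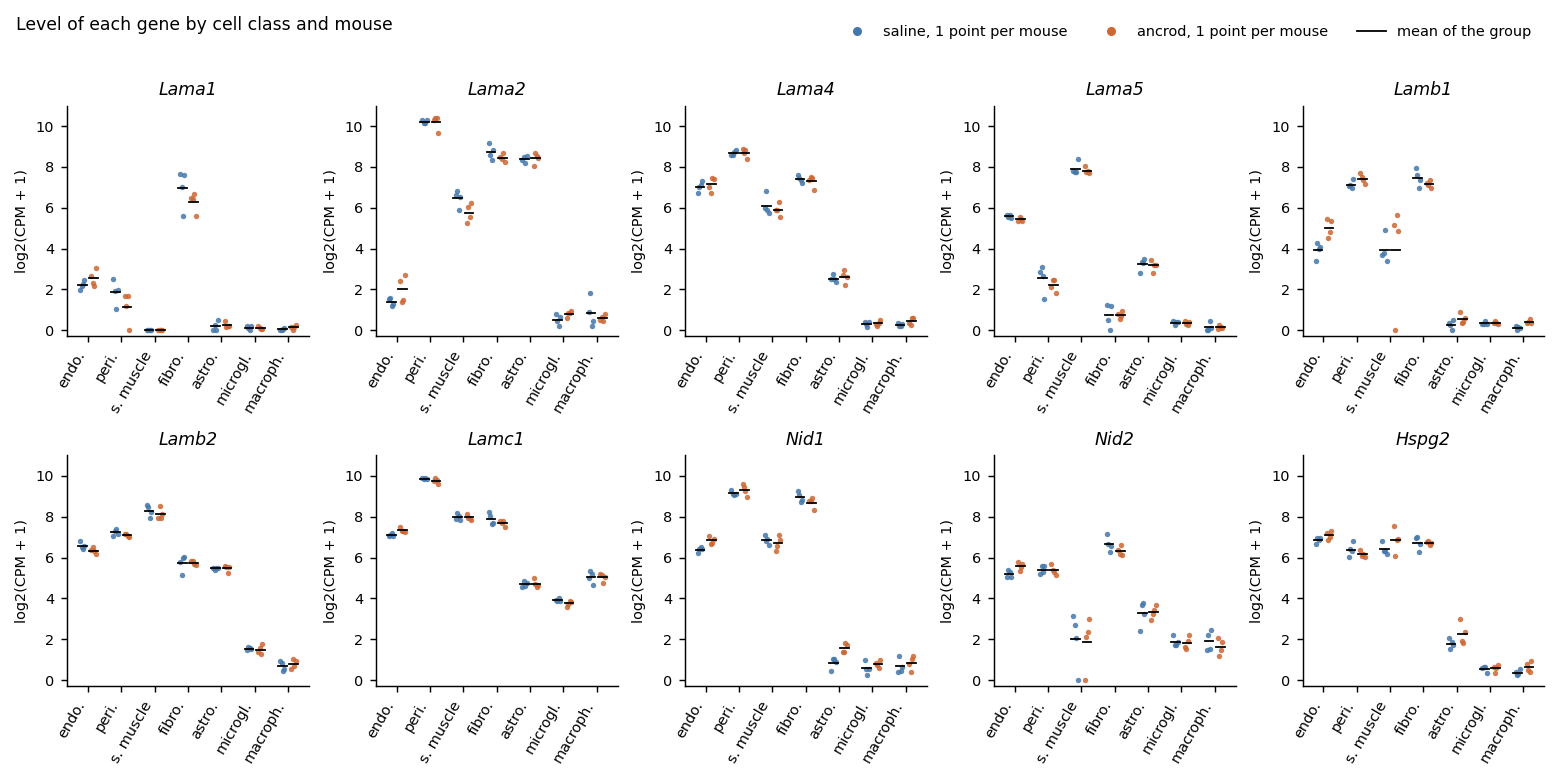
Level of each member as log2(CPM + 1) in 7 cell classes, with 1 point per mouse in blue for saline and orange for ancrod and a bar at the mean of each group of 4. Lama5 and Lamb2 stand highest in smooth muscle, Lama1 in fibroblasts, and Lama2, Lama4, Lamc1 and Nid1 in pericytes.

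The alpha chains carry the parts of laminin that bind cells, and each of the 4 had its own order of classes. Lama1 was at 46.8 to 198 CPM in fibroblasts (median 93.9) and at 2.90 to 7.38 CPM in endothelium. The fibroblast level was higher in 8 of 8 mice, by 4.24 ± 1.02 on the log2(CPM + 1) scale (SD, n = 8, exact sign-flip test, adjusted p = 0.0242). No Lama1 UMI was found in smooth muscle, where a count of 0 among 2712194 UMIs allows up to 1.11 CPM, and all 3645 astrocytes together gave 9 UMIs. Control replicate 3, with 34 fibroblasts, had 47.9 CPM, the lowest fibroblast level among control mice.

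Lama2, the alpha chain of muscle and glial basement membranes, was at 807 to 1357 CPM in pericytes (median 1247). Fibroblasts had 301 to 577 CPM and astrocytes 268 to 408 CPM, and these neighbours did not differ beyond their spread (6 of 8 mice higher in fibroblasts, exact sign-flip test, adjusted p = 0.358). Smooth muscle followed at 37.2 to 113 CPM, below astrocytes in 8 of 8 mice. Endothelium was at 1.28 to 5.60 CPM, which is under the Lama2 level of 21.9 to 82.2 CPM in droplets of at most 100 UMIs that hold free RNA.

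Lama4, the alpha chain found along most endothelium, was also highest in pericytes, at 332 to 470 CPM (median 417). Fibroblasts at 117 to 192 CPM and endothelium at 105 to 172 CPM did not differ beyond their spread (6 of 8 mice, exact sign-flip test, adjusted p = 0.301). Smooth muscle had 45.4 to 111 CPM, lower than endothelium in 8 of 8 mice, and astrocytes had 3.68 to 6.82 CPM.

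Lama5, the broadly used alpha chain of arterial and epithelial sheets, had another order. Smooth muscle was at 206 to 332 CPM (median 219), above endothelium at 39.97 to 49.0 CPM in 8 of 8 mice by 2.37 ± 0.28 on the log2(CPM + 1) scale (SD, n = 8, exact sign-flip test, adjusted p = 0.0242). Pericytes, the other mural cells, had 1.92 to 7.57 CPM and fibroblasts at most 1.33 CPM, from 82 UMIs in 2282 cells. Lama5 was thus higher in smooth muscle than in pericytes in every mouse, whereas Lama2 and Lama4 were higher in pericytes.

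Because each alpha chain had its own order of classes, the bases just before their starts are shown, from the start of the Ensembl canonical transcript in GENCODE vM39 on GRCm39, 5′ to 3′ on the strand of the gene. Capitals mark matches to the GC box GGGCGG, the TATA box TATAAA, the CCAAT box CCAAT or the SRF site (CArG box), on either strand and with overlaps allowed. The windows are chr17:68003973-68004222 (plus strand) for Lama1, chr10:27492939-27493159 (minus strand) for Lama2, chr10:38841261-38841510 (plus strand) for Lama4 and chr2:179867713-179867962 (minus strand) for Lama5. For Lama2 the 29 bases nearest the start lie in an exon of another transcript and are left out. The Lama2 and Lama4 windows lie before the canonical start but inside the annotated bounds of their genes.
Lama1: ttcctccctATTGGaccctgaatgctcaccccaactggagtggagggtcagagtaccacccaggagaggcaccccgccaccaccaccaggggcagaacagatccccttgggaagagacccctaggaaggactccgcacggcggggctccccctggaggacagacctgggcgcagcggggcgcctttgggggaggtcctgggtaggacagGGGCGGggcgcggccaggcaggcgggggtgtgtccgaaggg
Lama2: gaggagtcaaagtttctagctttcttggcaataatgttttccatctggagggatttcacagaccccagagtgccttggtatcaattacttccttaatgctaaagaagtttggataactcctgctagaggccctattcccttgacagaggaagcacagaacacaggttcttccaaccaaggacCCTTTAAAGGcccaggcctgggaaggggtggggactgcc
Lama4: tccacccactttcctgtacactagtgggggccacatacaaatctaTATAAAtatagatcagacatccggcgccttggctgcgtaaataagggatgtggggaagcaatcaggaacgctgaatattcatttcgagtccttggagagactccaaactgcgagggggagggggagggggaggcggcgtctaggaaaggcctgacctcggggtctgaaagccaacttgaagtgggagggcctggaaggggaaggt
Lama5: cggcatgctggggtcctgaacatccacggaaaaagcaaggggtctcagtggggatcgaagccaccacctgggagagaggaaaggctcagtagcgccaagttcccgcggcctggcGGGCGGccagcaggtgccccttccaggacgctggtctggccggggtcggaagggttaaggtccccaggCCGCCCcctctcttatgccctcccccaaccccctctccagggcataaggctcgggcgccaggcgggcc
Over 250 bases, the Lama1 and Lama5 windows held 68.8% and 68.0% G and C with 12 and 15 CpG, whereas the Lama2 window held 50.4% with 1 CpG and the Lama4 window 54.0% with 9 CpG. The median of 21616 such windows of coding genes was 53.2% with 8 CpG. The CArG box match before Lama2 is found in 1.41% of these windows and the TATA box match in the Lama4 window in 11.9%, while a GC box occurs in 36.4% and a CCAAT box in 36.6%. Counted over the whole 250 bases, which include bases in exons of other transcripts for some members (29 for Lama2, where its GC box lies, and 193 for Lamb1), 7 of the 10 members had a GC box and 4 a CCAAT box, and none had an E-box CACGTG or an AP-1 site TGANTCA, which occur in 6.28% and 6.18% of the windows. These matches describe letters only.

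The genes themselves lie apart in the genome apart from Lama2 and Lama4, which share chromosome 10. On GRCm39 in GENCODE vM39, Lama1 (ENSMUSG00000032796) is at chr17:68004223-68129642, Lama2 (ENSMUSG00000019899) at chr10:26856032-27495754, Lama4 (ENSMUSG00000019846) at chr10:38841141-38998403 and Lama5 (ENSMUSG00000015647) at chr2:179818166-179867712. Lamb1 (ENSMUSG00000002900) is at chr12:31315030-31379658, Lamb2 (ENSMUSG00000052911) at chr9:108356935-108367729 and Lamc1 (ENSMUSG00000026478) at chr1:153094597-153208774. Nid1 (ENSMUSG00000005397) is at chr13:13612071-13686860, Nid2 (ENSMUSG00000021806) at chr14:19801298-19861855 and Hspg2 (ENSMUSG00000028763) at chr4:137196079-137298231. All are protein-coding, and UMIs were counted over the whole gene, exons and introns included.

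The beta chains had different orders of classes, and pericytes held both. Lamb1 was at 124 to 246 CPM in fibroblasts and 123 to 206 CPM in pericytes, a difference that did not pass (3 of 8 mice higher in fibroblasts, exact sign-flip test, adjusted p = 0.991). Averaged over cells as log normalized UMIs instead, Lamb1 was 0.29 higher in fibroblasts and passed (exact sign-flip test, adjusted p = 0.0213), beside a median of 43862 UMIs per fibroblast and 5331 per pericyte, whose part in the result was not tested. Endothelium had 9.65 to 43.3 CPM and smooth muscle 0 to 49.5 CPM, both lower than pericytes in 8 of 8 mice. Lamb2, the beta chain of mature vessels and of the neuromuscular synapse, was highest in smooth muscle at 241 to 380 CPM. It fell stepwise to pericytes at 129 to 170 CPM, endothelium at 70.3 to 110 CPM and fibroblasts at 34.2 to 64.3 CPM, with each step in 8 of 8 mice (exact sign-flip test, adjusted p = 0.0242). Fibroblasts and astrocytes, the latter at 37.1 to 47.0 CPM, did not pass (adjusted p = 0.0586 by the same exact test).

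Lamc1, the gamma chain shared by most laminins, was the most widely found member. It was at 769 to 954 CPM in pericytes (median 927), above smooth muscle at 231 to 287 CPM in 8 of 8 mice. Fibroblasts had 181 to 295 CPM and endothelium 131 to 181 CPM. Lamc1 UMIs were also found in macrophages or monocytes at 24.1 to 39.5 CPM, in astrocytes at 22.2 to 31.1 CPM, in T or NK cells at 12.4 to 32.9 CPM and in microglia at 10.9 to 15.1 CPM. These levels are under the 41.7 to 79.0 CPM of Lamc1 in droplets of free RNA, whose part in them was not tested. Among these classes, macrophages or monocytes exceeded astrocytes in 7 of 8 mice and T or NK cells exceeded microglia in 8 of 8 (exact sign-flip test, adjusted p = 0.0426 and 0.0242).

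The nidogens differed from each other. Nid1 was at 495 to 767 CPM in pericytes and 324 to 611 CPM in fibroblasts, with pericytes higher in 8 of 8 mice by 0.40 ± 0.30 on the log2(CPM + 1) scale (SD, n = 8, exact sign-flip test, adjusted p = 0.0242). This small step was lost when doublets were kept (0.36, adjusted p = 0.0721) and when levels were averaged over cells (adjusted p = 0.489). Smooth muscle at 77.6 to 138 CPM and endothelium at 72.6 to 133 CPM did not differ in Nid1 beyond their spread, and astrocytes had 0.356 to 2.56 CPM. Nid2 was highest in fibroblasts at 69.6 to 140 CPM, and endothelium and pericytes were alike in the median at 40.3 and 39.7 CPM (difference 0.00 ± 0.34 on the log2(CPM + 1) scale, SD, n = 8, 4 of 8 mice higher in endothelium). Astrocytes had 4.36 to 12.4 CPM of Nid2 and smooth muscle at most 7.91 CPM, from 11 UMIs.

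Hspg2, which encodes perlecan, had its highest median in endothelium. Endothelium was at 99.1 to 158 CPM, fibroblasts at 76.6 to 128 CPM, smooth muscle at 65.3 to 186 CPM and pericytes at 64.4 to 110 CPM. None of these neighbours in the order differed past the threshold, with exact sign-flip adjusted p of 0.160, 0.794 and 0.224, and classes further apart in the order were not compared. Averaged over cells, the order of endothelium and fibroblasts turned, with endothelium at -0.12 against fibroblasts in log normalized UMIs (exact sign-flip test, adjusted p = 0.0213). Astrocytes followed at 1.89 to 7.02 CPM, below pericytes in 8 of 8 mice.

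Across 10 classes, the log2(CPM + 1) medians of Lamb1 and Nid1 followed each other most closely (Pearson r = 0.99), then those of Lama4 and Nid1 (0.98) and of Lama4 and Hspg2 (0.97). Lama1 and Lama5 were unrelated (r = 0.00), and the 45 pairs of members had a median r of 0.78. Among 10895 genes with at least 20 CPM in a class, Lama1 was most like Tfpi2, Cyp1b1 and Smoc2, Lama2 most like Lrp3, Dzip1l and Cadm4, Lama4 most like Col4a1, Grb10 and Dysf, and Lama5 most like Sorbs2, Etnk2 and Rcan2. Lamb1 was most like Zfp618, Nid1 and Cdc42ep5, Lamb2 most like Thsd7a, Tgfb2 and Epn2, and Lamc1 most like Thap11, Fam118a and Rce1. Nid1 was most like Cdc42ep5, Grb10 and Lamb1, Nid2 most like Czib, Slc16a9 and Tmem158, and Hspg2 most like Ptpn14, Ccn2 and Col4a1. These r values lay between 0.94 and 1.00 over 10 points that share libraries, and they are given as a description.

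Within endothelium, 5 clusters were distinguished, made without the members. They were led by Sema3c and Slco1a4 (2739 cells), Ly6c1 and Cxcl12 (1640 cells, both capillary-like), Gm5127 and Ackr1 (1160 cells, venous-like), Gkn3 and Sema3g (1121 cells, arterial-like) and Selp, Aplnr, Adamts9 and Sele (407 cells), the last with a best match to the list of tip cell markers, while its leading genes also held Ackr1, of the venous-like cluster, and the adhesion molecules Selp and Sele, so that it is called by its leading genes. The Selp cluster had the highest median of 8 members. Lamb1 was at 73.6 to 160 CPM there (median 119), while the medians of the other clusters were between 1.65 and 14.6 CPM, and in all 8 mice the Selp cluster lay above every other cluster. Hspg2 was at 181 to 333 CPM in the Selp cluster against medians of 85.1 to 110.5 CPM elsewhere, Nid1 at 182 to 291 CPM against 44.3 to 103 CPM, and Nid2 at a median of 84.3 CPM against 32.1 to 38.1 CPM. Lama4 and Lamc1 reached medians of 209 and 223 CPM in it.

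Lama5 and Lamb2 had the opposite pattern. Both were highest in the arterial-like cluster, at medians of 68.6 and 123 CPM, and lowest in the Selp cluster, at 26.9 and 42.9 CPM. Lama1 and Lama2 stayed at medians of at most 10.1 CPM in every endothelial cluster. Since clusters are defined by expression of these same cells, the levels are a description, and cells of the Selp cluster held 1.85 times the median UMIs of their libraries.

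**Figure D2:**
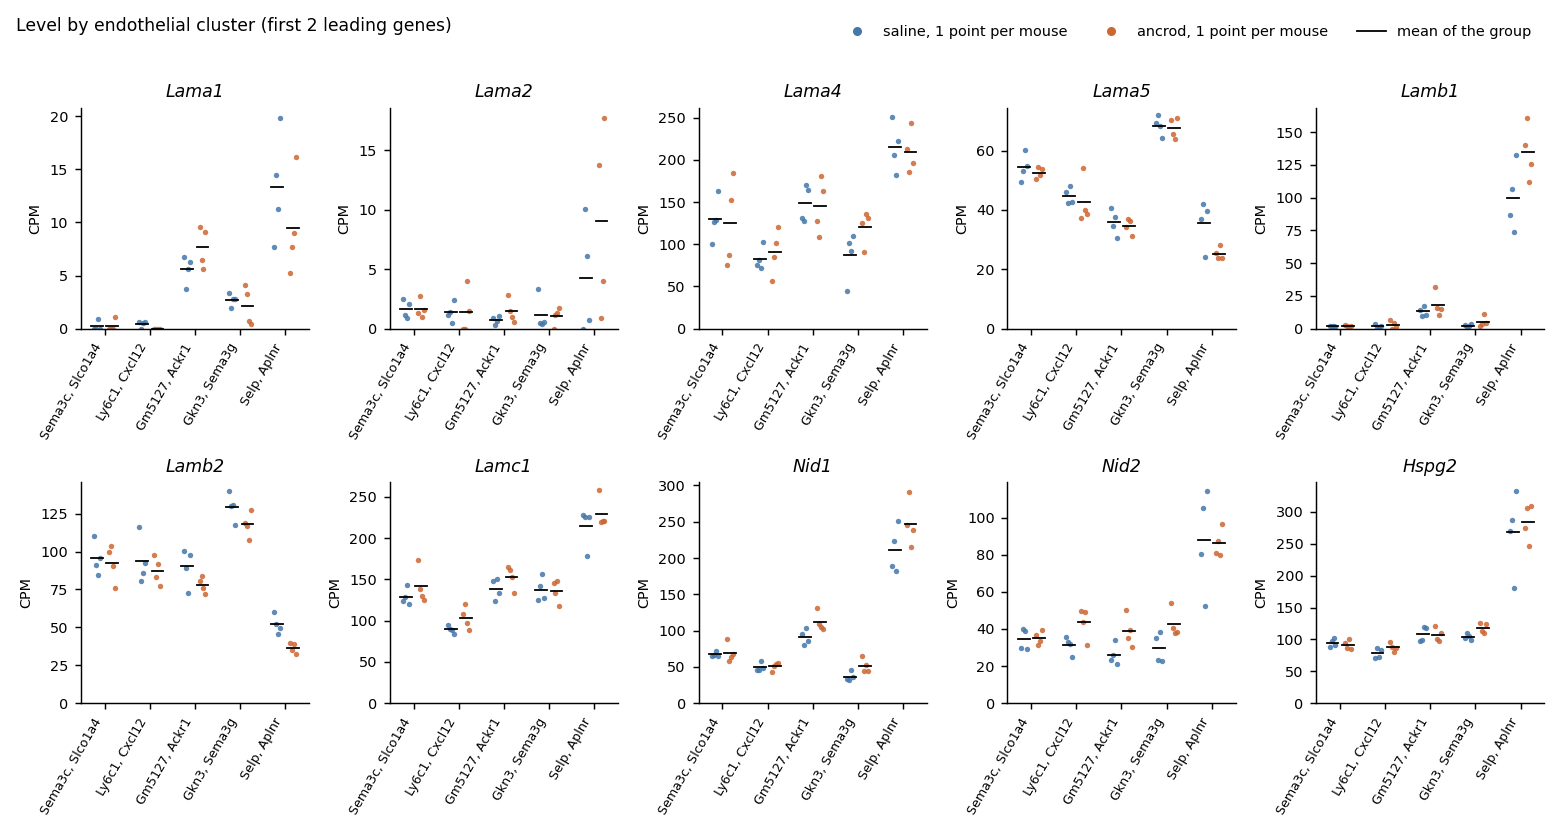
Level of each member in CPM by endothelial cluster, named by its first 2 leading genes, with 1 point per mouse and a bar at the mean of each group of 4. Lamb1 sits at 73.6 to 160 CPM in the Selp cluster and near 0 in the capillary-like clusters, whereas Lama5 and Lamb2 are lowest in the Selp cluster and highest in the Gkn3 cluster.

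Fibroblasts were as uneven. In the cluster led by Cemip, Aldh1a2, Pdgfra and Lum (891 cells) Lama1 was at 238 to 399 CPM over the 7 mice with at least 10 cells, against medians of 36.7 CPM in the cluster of dividing cells, 2.97 CPM in that led by Col8a1, Col12a1 and Col1a2, and 0 in that led by Penk, Ccn3 and Slc47a1. The Cemip cluster also had the highest medians of Lama2 (609 CPM), Lamb1 (270 CPM), Lamc1 (312 CPM), Nid1 (692 CPM) and Nid2 (145 CPM). The Penk cluster (243 cells, 6 mice) had almost no Lamb1, at 0.977 to 11.7 CPM, but the most Lamb2, at 119 to 149 CPM against medians of 14.9 to 44.1 CPM elsewhere. The Penk cluster was thus lowest in Lamb1 and highest in Lamb2. These levels are likewise a description.

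**Figure D3:**
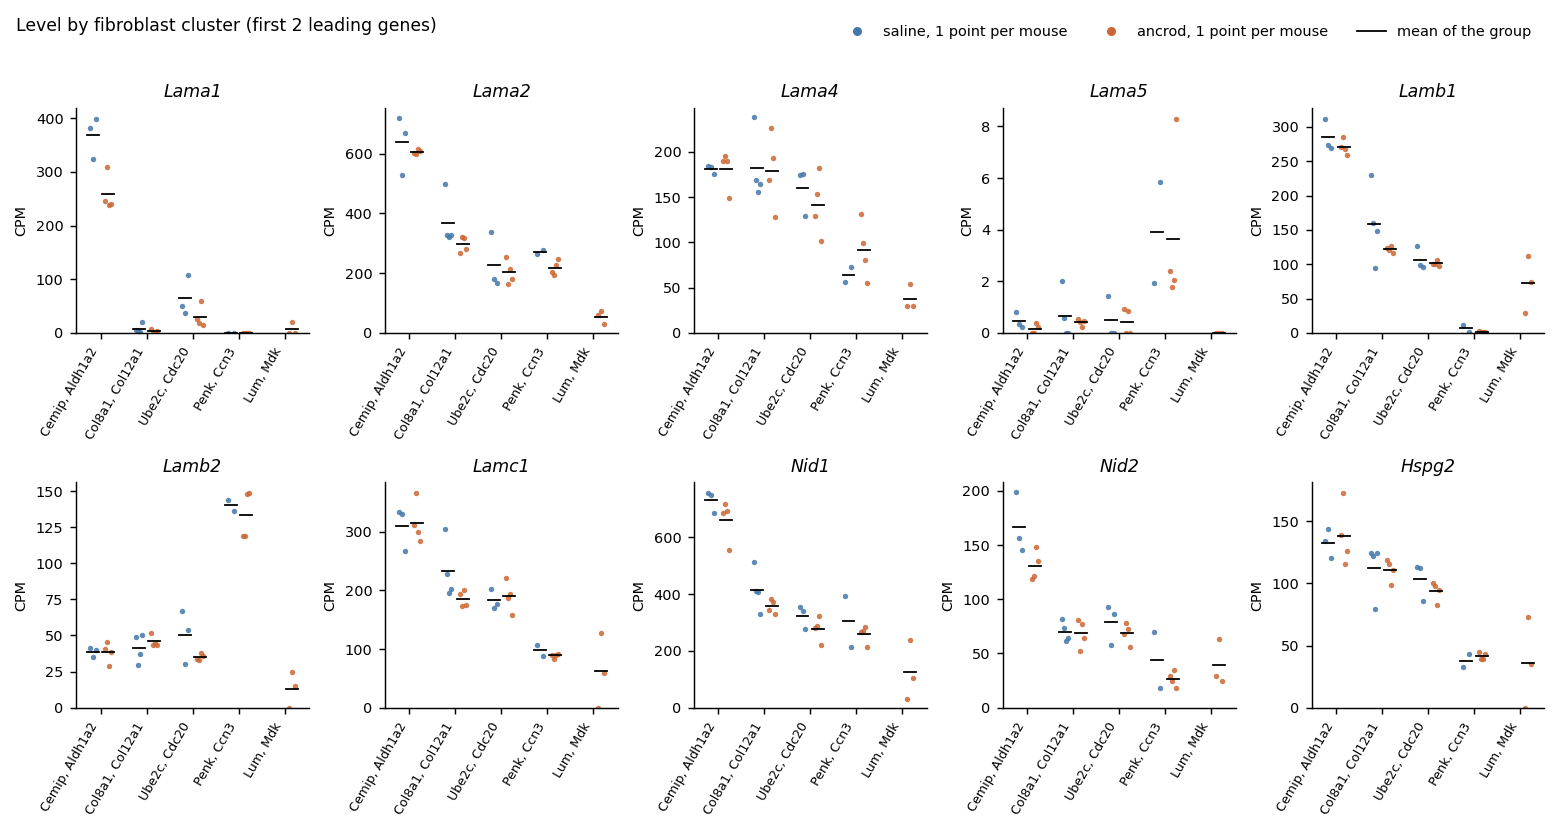
Level of each member in CPM by fibroblast cluster, named by its first 2 leading genes, with 1 point per mouse that had at least 10 cells and a bar at the mean of each group. Lama1 is at 238 to 399 CPM in the Cemip cluster and near 0 in the Penk cluster, and Lamb2 is at 119 to 149 CPM in the Penk cluster.

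Among astrocytes, Lama2 differed widely between clusters. Lama2 was at a median of 425 CPM in the homeostatic-like cluster led by Gpc5, Ntsr2 and Slc1a2, 904 CPM in that led by Wdr17, Gpc5 and Npas3, and 123 CPM in the reactive-like cluster led by Myoc, Fabp7, A2m and Gfap. In the cluster led by Aldoc, Mt3 and Gfap the median was 28.9 CPM, from 182 UMIs, and its cells held 0.276 times the median UMIs of their libraries. Lamb2 varied less, with medians of 19.9 to 48.6 CPM over the 4 clusters. Oligodendrocyte precursors, over all 141 cells, had 99.6 CPM of Lamc1 and 50.0 CPM of Lama4, from 299 and 150 UMIs.

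The comparison of ancrod with saline asks whether the genes differ in mice depleted of fibrinogen. In endothelium, 8 of 10 members had positive log2 fold changes, with Lamb1, Nid1 and Lamc1 higher in each ancrod mouse than in every control, but no member passed the threshold in edgeR's quasi-likelihood test (0 of 12664 genes called, background 0%). Over all genes, 1131 had an unadjusted p under 0.05 and DESeq2 called 35. The median log2 fold change of the members was 0.35, against 0.01 over all genes tested. Groups did not overlap in the higher direction for 2.26% of all endothelial genes and for 3 of 10 members.

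Lamb1 had the largest log2 fold change. Control mice had 9.65, 18.3, 14.8 and 15.9 CPM in endothelium (replicates 1 to 4) and ancrod mice 43.3, 22.1, 26.9 and 39.4 CPM. All 4 ancrod mice were above the highest control. Lamb1 in droplets of free RNA was 14.7 ± 5.60 CPM in control and 21.2 ± 9.40 CPM in ancrod mice (SD, n = 4), which is near the control level of endothelium, and its part in the result was not tested. The log2 fold change was 1.16 ± 0.24 (SE, edgeR adjusted p = 0.424, unadjusted p = 0.000778), and DESeq2 gave 1.16 with an adjusted p of 0.00582, so the call depends on the tool. Within batch 1 the difference was 1.04 on the log2(CPM + 1) scale (3 against 3 mice, exact permutation p = 0.1, the smallest possible) and in batch 2 it was 1.25 (1 against 1 mouse).

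Nid1 was at 72.6, 85.9, 89.4 and 83.4 CPM in control endothelium and at 133, 99.4, 103 and 120 CPM with ancrod, again without overlap (log2 fold change 0.47 ± 0.12, SE, edgeR adjusted p = 0.480). Free RNA held 38.3 ± 10.7 and 56.9 ± 17.5 CPM of Nid1 (SD, n = 4). Lamc1 was at 132, 138, 146 and 131 CPM in controls and at 181, 154, 154 and 150 CPM with ancrod (log2 fold change 0.23 ± 0.09, SE, edgeR adjusted p = 0.528). Nid2 had a log2 fold change of 0.43 ± 0.13 and Hspg2 of 0.26 ± 0.12, both with overlapping groups (SE, edgeR adjusted p = 0.528 and 0.552). Lama4 at 0.13 and Lama1 at 0.49 overlapped as well, and Lama2 at 1.06 rests on 292 UMIs. Lama5 and Lamb2 had the negative values, at -0.14 ± 0.07 and -0.23 ± 0.10 (SE, edgeR adjusted p = 0.560 and 0.552).

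Of the endothelial cluster shares, only that of the Sema3c cluster had an unadjusted exact permutation p under 0.05. The Selp cluster made up 4.37% ± 1.58 of endothelial cells in control mice and 8.84% ± 4.09 in ancrod mice (SD, n = 4 each, two-sided exact permutation p = 0.114). The Sema3c cluster made up 40.6% ± 1.47 and 35.3% ± 3.25 (exact permutation p = 0.0286). The Ly6c1 cluster made up 25.1% ± 2.39 and 18.5% ± 4.77 (exact permutation p = 0.114). Shares were 14.7% ± 2.92 and 20.8% ± 5.91 for the venous-like and 15.3% ± 0.648 and 16.6% ± 1.54 for the arterial-like cluster (exact permutation p = 0.171 each). In an alternative chosen after seeing the data, without the Selp cluster, Lamb1 in endothelium was 6.00 ± 0.98 CPM in control and 10.1 ± 4.86 CPM in ancrod mice (SD, n = 4), and the difference of 1.096 on the log2(CPM + 1) scale became 0.59 (exact permutation p = 0.0286 with and 0.0571 without the Selp cluster). For Nid1 the difference went from 0.45 to 0.26, for Lamc1 from 0.22 to 0.14 and for Hspg2 from 0.25 to 0.05, whereas Nid2 went from 0.42 to 0.35 and Lama1 from 0.35 to 0.39. Lama2 went from 0.62 to 0.21, Lama4 from 0.11 to 0.05, Lama5 from -0.14 to -0.05 and Lamb2 from -0.23 to -0.12. The groups then overlapped for every member, but the share over all genes without the Selp cluster was not computed. Nothing about the members is therefore read from this overlap. Inside the Selp cluster, Lamb1 was 99.8 ± 25.7 CPM in control and 134 ± 20.8 CPM in ancrod mice (exact permutation p = 0.114). Within single clusters, groups did not overlap in 2 of 50 comparisons of a member in an endothelial cluster. These were Lamb2 in the Selp cluster, at 51.9 ± 6.06 and 36.6 ± 3.41 CPM, and Hspg2 in the arterial-like cluster, at 104 ± 4.96 and 118 ± 7.51 CPM (SD, n = 4, unadjusted exact permutation p = 0.0286 each). Over all genes tested in endothelium, 2.89% of the comparisons within these clusters did not overlap. The 21 fibroblast markers summed to 64 to 87 CPM in control and 53 to 246 CPM in ancrod endothelium, with 1 marker at 0 in every mouse and 18 higher in the ancrod mean. The 22 endothelial markers themselves summed to 28319 to 32723 and 26143 to 29615 CPM, with 5 higher in the ancrod mean, and the 11 microglia markers to 196 to 205 and 153 to 175 CPM, without overlap and with 1 higher. The 10 pericyte markers summed to 267 to 453 and 383 to 455 CPM, with 10 higher in the ancrod mean, and the 16 astrocyte markers to 132 to 234 and 202 to 330 CPM, with 14 higher, and none of these 4 lists had a marker at 0 in every mouse. The part of these markers and of the cluster shares in the endothelial result was not tested.

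In fibroblasts, 9 members were tested and all 9 log2 fold changes were below 0, but none passed and none had groups that did not overlap (1 of 12789 genes called, background 0.00782%, and 3.42% of genes were lower in all ancrod mice). The median of the members was -0.29, against -0.01 over all genes tested. Lama1 was at 198, 128, 47.9 and 195 CPM in control fibroblasts and at 87.4, 84.2, 100.3 and 46.8 CPM in those given ancrod. The fold change of Lama1 was, on the log2 scale, -0.87 ± 0.36 (SE, edgeR adjusted p = 0.387), with a difference of -0.24 within batch 1 and -2.03 in batch 2 on the log2(CPM + 1) scale. Nid2 at -0.37 ± 0.17, Lamb1 at -0.35 ± 0.17, Lama2 at -0.30 ± 0.16 and Nid1 at -0.29 ± 0.14 (SE) had edgeR adjusted p of 0.426, 0.441, 0.477 and 0.437. Lamc1, Lama4, Hspg2 and Lamb2 lay between -0.20 and -0.01, and Lama5 was too low to test. Beside these values, the 21 fibroblast markers summed to 29879 to 40718 CPM in control and 26580 to 32371 CPM in ancrod fibroblasts, with 5 higher in the ancrod mean. The 11 dendritic cell markers summed to 141 to 177 and 170 to 185 CPM (10 higher), the 12 T or NK cell markers to 1.79 to 3.86 and 3.14 to 10.3 CPM (10 higher) and the 9 neutrophil markers to 3.73 to 7.62 and 2.51 to 115 CPM (8 higher). The 10 smooth muscle markers summed to 25.7 to 54.7 and 39.9 to 75.6 CPM (5 higher). Some other lists had a lower mean sum, among them the 16 astrocyte markers, at 1001 to 1736 and 1102 to 1577 CPM (12 higher). The 22 endothelial markers summed to 944 to 1249 and 786 to 1043 CPM (3 higher). The 11 microglia markers summed to 367 to 486 and 351 to 377 CPM (3 higher), and the 16 macrophage or monocyte markers to 244 to 441 and 136 to 277 CPM (9 higher). None of these markers was at 0 in every mouse, and their part in the result was not tested. The Cemip cluster made up 41.8% ± 16.4 of fibroblasts in control and 34.5% ± 9.71 in ancrod mice (SD, n = 4, exact permutation p = 0.457). Inside it, Lama1 was 368 ± 39.9 CPM in control (n = 3) and 258 ± 34.3 CPM in ancrod mice (n = 4, exact permutation p = 0.0571). Lama1 was 7.68 ± 8.64 and 3.34 ± 2.93 CPM in the Col8a1 cluster and 65.0 ± 37.6 and 29.8 ± 20.2 CPM in the dividing cluster (exact permutation p = 0.4 and 0.143). In the Penk cluster the means were 0 and 0.159 CPM. The part of these values in the result was not tested.

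**Figure D4:**
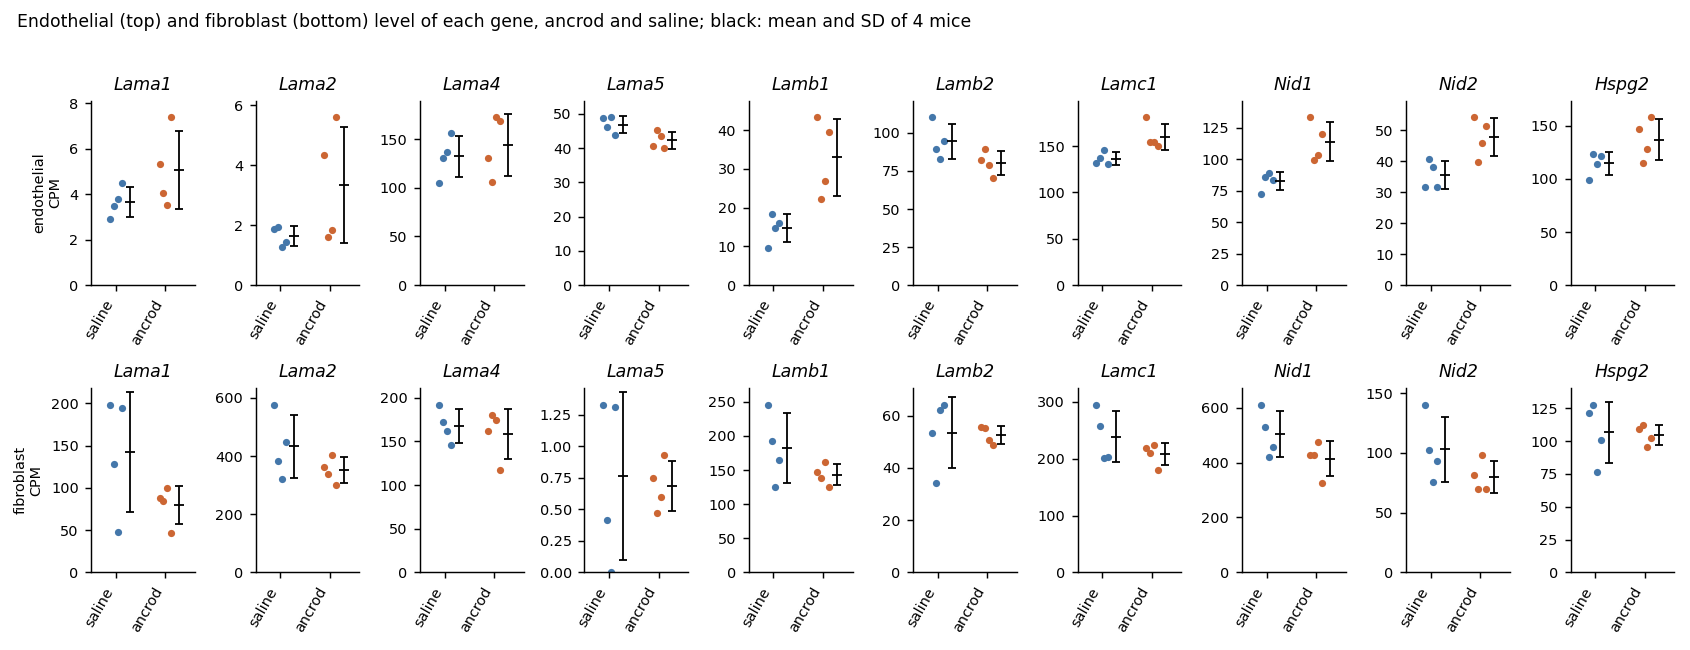
CPM of each member in endothelium (top) and fibroblasts (bottom), with 1 point per mouse and the mean ± SD of 4 mice in black. In endothelium Lamb1, Lamc1 and Nid1 do not overlap between the groups, while in fibroblasts every member overlaps.

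The difference between the effects in fibroblasts and endothelium was tested within mice. For Lamb1, fibroblasts exceeded endothelium by 3.53 ± 0.68 on the log2(CPM + 1) scale in control mice and by 2.13 ± 0.51 in ancrod mice, without overlap (difference -1.41, SD, n = 4 each, exact permutation p = 0.0286, adjusted p = 0.143). Nid1 also did not overlap, at 2.58 ± 0.35 and 1.85 ± 0.36 (difference -0.73, exact permutation p = 0.0286, adjusted p = 0.143). Nid2 at -0.76, Lama2 at -0.90, Lamc1 at -0.41 and Lama1 at -1.04 had unadjusted exact permutation p of 0.0571, 0.0857, 0.0571 and 0.2. Lama4 at -0.21 and Hspg2 at -0.25 had the same sign, whereas Lama5 at 0.16 and Lamb2 at 0.25 had the other (exact permutation p of 0.571, 0.286, 0.714 and 0.371). No member passed after adjustment over the 10, and 2.47% of 11760 genes were lower without overlap in the same way.

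Pericytes differed little in the members. Of 8 tested, 5 were above and 3 below 0 with a median of 0.04, and none was called (31 of 9146 genes, background 0.339%). With a mouse left out the genes called went from 0 (without control replicate 1, control replicate 2 or ancrod replicate 2) to 70 (without ancrod replicate 3). Lamb1 was at 133, 138, 123 and 170 CPM in control and at 206, 181, 165 and 142 CPM in ancrod mice (log2 fold change 0.36 ± 0.14, SE, edgeR adjusted p = 0.363). Within batch 1 this difference was 0.48 on the log2(CPM + 1) scale (exact permutation p = 0.1, the smallest possible) and in batch 2 it was -0.26. Nid1 followed at 0.25 ± 0.14 (SE, edgeR adjusted p = 0.586), and the other 6 were Lama4 at 0.09, Lama2 at 0.05, Nid2 at 0.03, Lamc1 at -0.05, Lamb2 at -0.08 and Hspg2 at -0.19. Lama1 and Lama5 were too low to test. Lama2 was lowest in ancrod replicate 4, at 807 CPM, where the other 7 mice had 1122 to 1357 CPM.

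In astrocytes 7 members were tested with log2 fold changes from -0.06 to 0.65, the latter for Hspg2 on 182 UMIs, and none was called (0 of 12249 genes, background 0%). Hspg2 was at 7.02 CPM in ancrod replicate 1, against 2.56 to 4.16 CPM in the other ancrod mice and 1.89 to 3.12 CPM in controls. Lama2 was at 296 to 371 CPM in control and 268 to 408 CPM in ancrod astrocytes (log2 fold change 0.07 ± 0.13, SE, edgeR adjusted p = 1.00). Lama4 at 0.17, Nid2 at 0.11, Lamc1 at 0.05, Lamb2 at 0.03 and Lama5 at -0.06 were nearer 0 than Hspg2, and Lama1, Lamb1 and Nid1 were too low to test. Nid1 was at 0.356 to 1.05 CPM in control and 1.58 to 2.56 CPM in ancrod astrocytes, without overlap, as were 1.09% of the genes tested in this direction, but these levels rest on 78 UMIs in all and are under the 26.4 to 75.6 CPM of Nid1 in droplets of free RNA. The 21 fibroblast markers summed to 133 to 174 CPM in control and 173 to 205 CPM in ancrod astrocytes, with 19 higher in the ancrod mean. The 10 pericyte markers summed to 84.3 to 144 and 110 to 137 CPM (9 higher), and the 22 endothelial markers to 167 to 243 and 119 to 256 CPM (6 higher). The part of these markers in the result was not tested.

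No member was called in smooth muscle (0 of 4846 genes), oligodendrocyte precursors (0 of 8674, 5 mice), microglia (0 of 13124) or macrophages or monocytes (0 of 11550), each with a background of 0%. At an unadjusted p under 0.05, edgeR gave 286, 446, 530 and 324 genes in these classes and 520 in astrocytes. In smooth muscle, Lama2 had a log2 fold change of -0.72 ± 0.27 and Hspg2 of 0.54 ± 0.28 (SE, edgeR adjusted p = 0.828 and 0.873), with Lama4 at -0.27, Lamb2 at -0.15, Nid1 and Lama5 at -0.07 and Lamc1 at -0.0047. Each mouse gave 18 to 42 of these cells. Their 10 pericyte markers summed to 3381 to 6016 CPM in control and 1968 to 5449 CPM in ancrod mice (2 higher in the ancrod mean). Their 21 fibroblast markers summed to 1151 to 1755 and 1294 to 1902 CPM (15 higher, 2 at 0 in every mouse). The part of both lists in the smooth muscle values was not tested. In microglia, Lama2 was at 0.84 ± 0.39 and Nid1 at 0.62 ± 0.43 (SE, edgeR adjusted p = 0.956 each), and Lama4, Hspg2, Lamb1, Nid2, Lama5, Lamb2 and Lamc1 lay between -0.14 and 0.18. In macrophages or monocytes, Nid1 was at 0.33, Lamb2 at 0.31, Lamc1 at -0.05 and Nid2 at -0.45. Lama2 and Nid1 reached at most 0.945 and 0.999 CPM in microglia. The 21 fibroblast markers there summed to 16.3 to 37.7 CPM in control and 24.0 to 89.4 CPM in ancrod mice. Of these 18 were higher in the ancrod mean, as were 15 of 16 astrocyte and 3 of 10 pericyte markers. In macrophages or monocytes 19 fibroblast, 16 astrocyte and 3 pericyte markers were higher. The part of these markers was not tested. In oligodendrocyte precursors, Nid2 was at 1.35 ± 0.89 (SE, edgeR adjusted p = 0.989), Lama4 at 0.27, Lamc1 at 0.03 and Lama2 at -0.45. Members not named in a class did not pass the filter on low counts there.

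Which cells held the UMIs of a gene depended on class sizes as well as levels. Endothelium made up 21.0% ± 1.59 of cells in control and 11.3% ± 4.26 in ancrod mice (SD, n = 4, exact permutation p = 0.0286, adjusted p = 0.229), and fibroblasts 3.15% ± 1.80 and 7.35% ± 4.23 (p = 0.143 and adjusted p = 0.229 by the same exact test). In sampled tissue, fewer cells of a class and poorer recovery of that class cannot be told apart. Of Lamb2 UMIs, 56.3% ± 6.53 came from endothelium in control mice and 32.8% ± 5.55 in ancrod mice (exact permutation p = 0.0286, adjusted p = 0.114). Lama5 gave 77.0% ± 1.96 and 62.2% ± 6.12 with the same p values. Cells of unnamed clusters gave 7.67% ± 2.76 and 16.6% ± 3.33 of Lama5 UMIs, also without overlap, and among these clusters was 1 of 498 cells that scored best as endothelium while Rgs5 and Abcc9, pericyte markers, led it. The endothelial shares of Hspg2, Lama4 and Lamc1 UMIs had lower means in ancrod mice as well (adjusted p = 0.114 each by the exact test). UMI shares are given for the members only, with no value over all genes beside them. Whether these differences are particular to the members, beside the lower share of endothelial cells itself, was not tested.

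Fibroblasts held the larger part of some genes in both groups. They gave 82.6% ± 24.8 of Lama1 UMIs in control and 92.3% ± 4.49 in ancrod mice, and 53.3% ± 23.7 and 68.4% ± 15.7 of Nid1 UMIs (SD, n = 4). Control replicate 3, with 34 fibroblasts, gave 45.5% and 17.9% of these, and without it the difference of ancrod from control went from 9.70 to -2.68 percentage points for Lama1 and from 15.1 to 3.37 for Nid1. Pericytes, with the highest Lama2 level, gave 22.3% ± 10.2 and 11.1% ± 5.77 of its UMIs, and astrocytes 26.6% ± 7.39 and 26.4% ± 19.4. No endothelial or fibroblast share passed after adjustment over the 10 members. Cells of unnamed clusters held 1.485% to 10.6% of each member's UMIs in control mice and 0.764% to 16.6% in ancrod mice.

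**Figure D5:**
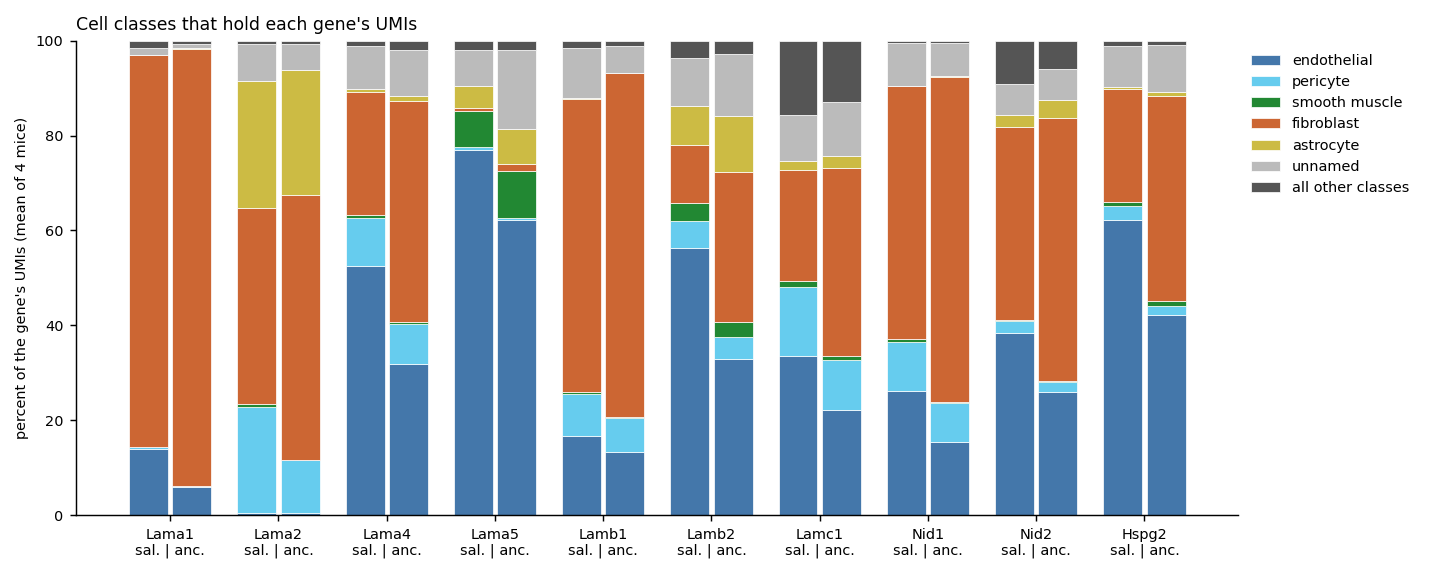
Mean percent of each member's UMIs that came from each cell class, for saline (left bar, 4 mice) and ancrod (right bar, 4 mice). Endothelium holds 77.0% of Lama5 UMIs in saline and 62.2% in ancrod mice, and fibroblasts hold 82.6% and 92.3% of Lama1 UMIs, a difference that turns to -2.68 percentage points without control replicate 3.

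The other genes of the basement membrane were followed as a list of 43, holding 4 further laminin chains, 15 other components, 10 receptors and 14 genes of crosslinking and turnover. None of the 35 tested in endothelium, 29 in pericytes, 39 in fibroblasts or 32 in astrocytes was called by edgeR. Their median log2 fold changes were 0.09, 0.27, -0.10 and 0.06, and 24 of 35, 24 of 29, 16 of 39 and 19 of 32 were above 0. In pericytes all 10 tested genes of crosslinking and turnover, 10 of 12 other components, 4 of 6 receptors and 0 of 1 laminin chain were above 0, against 48.9% of all pericyte genes tested.

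The largest values of the list in each class are given as values. In endothelium they were Col15a1, a collagen at the outer face of vessel sheets (log2 fold change 1.11 ± 0.83), Mmp14, a membrane-bound protease of matrix (1.00 ± 0.25), and Pxdn, the peroxidase that crosslinks collagen IV (0.85 ± 0.25, SE, edgeR adjusted p = 0.655, 0.502 and 0.528). In pericytes they were Col15a1 at 1.04 ± 0.41, Loxl2, a lysyl oxidase, at 0.91 ± 0.28, and Col18a1, the source of endostatin, at 0.81 ± 0.18 (SE, edgeR adjusted p = 0.378, 0.213 and 0.0675). Col18a1 was at 87.0 to 167 CPM in control and 187 to 295 CPM in ancrod pericytes, without overlap, as were 2.22% of all pericyte genes in this direction. The 21 fibroblast markers in pericytes summed to 2042 to 2419 CPM in control and 2476 to 2669 CPM in ancrod mice, also without overlap, with 1 at 0 in every mouse and 13 higher in the ancrod mean. Lower without overlap were the 22 endothelial markers, at 1070 to 1233 and 1032 to 1055.5 CPM (5 higher, 1 at 0 in every mouse). The 11 oligodendrocyte precursor markers were lower as well, at 543 to 601 and 399 to 517 CPM (6 higher, 3 at 0 in every mouse). The part of these lists in the result was not tested. Col18a1 passed the threshold with DESeq2, a batch term, a replicate block or no filter on low counts, and without ancrod replicate 3. In fibroblasts they included Lama3, an alpha chain of epithelial laminin at no more than 7.90 CPM (-1.13 ± 0.49), and Fbln2, a fibulin that binds laminin (0.93 ± 0.32, SE, edgeR adjusted p = 0.411 and 0.343). In astrocytes they were Mmp2, Lamb3 and Col4a6, at 0.85, -0.69 and 0.46 (edgeR adjusted p = 1.00 each).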

How the data were processed

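Single-cell RNA sequencing data of 8 libraries were used. The authors aligned reads with Cell Ranger 7.1.0 and STAR to GRCm39, with intronic reads counted, and deposited UMI counts per gene for all droplets, without normalization. Droplets with at least 2000 UMIs and less than 20% mitochondrial UMIs were kept, and the highest doublet scores of each library were removed, at a rate that grew with the number of droplets. Clusters came from 3000 variable genes without the members or the 43 listed genes, 30 components, 20 neighbours and leidenalg 0.10.2 at resolution 2, and were named from marker lists. Member and gene lists, like the markers, were chosen with earlier results of these data known. UMIs were summed per mouse and class (at least 10 cells), filtered with filterByExpr, and tested with edgeR 4.0.16 (TMM, glmQLFTest, Benjamini-Hochberg threshold 0.05 over all genes), with DESeq2 1.42.0 as an alternative. The fit was tested on simulated data. Shares and differences of log2(CPM + 1) were compared by two-sided exact tests over mice, the smallest p for 4 against 4 being 0.0286. Nothing tells whether mice shared a litter or cage. All 10 members are given in each class tested, by value or range, unless the filter on low counts removed them. Of the listed genes, those called were named or otherwise the 3 with the largest absolute fold change (1 of these in fibroblasts is not reported here), and for each member the 3 genes of highest Pearson r over class medians. Alternatives were DESeq2, RLE size factors, no filter on low counts, a replicate block, a batch term, kept doublets, the cell filter of the study (inflection point, 30% mitochondrial UMIs, 3 median absolute deviations), resolution 1, log-normalized means, a pseudocount of 10 CPM and each mouse left out. The limit given for a count of 0 covers counting error only. Values after ± are SDs over mice or SEs of the edgeR fit over mice. These SEs were derived as the absolute log2 fold change divided by the square root of the quasi-likelihood F statistic.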

Additional observations from a re-analysis of the deposited data

Results flagged for a closer look

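In groups of 4 mice, a mouse was picked out where its gap to the nearest other exceeded Dixon's 95% critical ratio, which chance gives in about 1 of 20 groups. Of 100 groups, those with few UMIs were passed over, so fewer than 100 were examined. Lamc1 in endothelium was 181 CPM in ancrod replicate 1, against 150 to 154 CPM in the other ancrod mice. Lama2 in pericytes was 807 CPM in ancrod replicate 4, against 1270 to 1357 CPM. Nid1 in pericytes was 627 CPM in control replicate 1, against 540 to 544 CPM. Lama5 in smooth muscle was 332 CPM in control replicate 4, against 212 to 226 CPM. In classes outside the comparisons, pooled over all mice, Lamc1 was also at 109 CPM in B cells, 59.0 CPM in neurons and 99.6 CPM in oligodendrocyte precursors.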

How the results depend on the processing

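Of 544 fold changes of members in endothelium, fibroblasts, pericytes and astrocytes over the alternatives, 511 kept their sign and side of the threshold. Fold changes of members in the other classes were not included. DESeq2 called 1 member in endothelium (Lamb1). In pericytes 1 listed gene was called with DESeq2, a batch term, no filter on low counts or a replicate block (Col18a1 each time), and 0 to 1 with a mouse left out (Col18a1 without ancrod replicate 3, Col15a1 without control replicate 4). No filter on low counts also called 1 in oligodendrocyte precursors (Adamts1). Replicate numbers did not pair the mice: deviations of same-numbered mice correlated at -0.31 to 0.25, and the replicate block moved the genes called in pericytes from 31 to 60, against 54 with a batch term and 78 with DESeq2, and called no member. Lamb2 in fibroblasts, near 0, turned to 0.0015 with DESeq2, 0.010 at resolution 1, 0.0045 with RLE, 0.0077 with a batch term, 0.030 with the cell filter of the study, 0.020 without a filter and 0.015 with the block. In astrocytes, keeping doublets gave -0.035 for Lama4 and -0.0015 for Lamc1, and resolution 1 gave -0.0094 for Lamb2. With a mouse left out, signs turned in fibroblasts for Lama4 (-0.157 to 0.016), Lamb2 (-0.174 to 0.114) and Hspg2 (-0.135 to 0.064), in pericytes for Lama2 (-0.0098 to 0.204), Lamc1 (-0.085 to 0.011) and Nid2 (-0.086 to 0.101), and in astrocytes for Lama2 (-0.0097 to 0.186), Lama4 (-0.0098 to 0.301), Lama5 (-0.230 to 0.094), Lamb2 (-0.0060 to 0.0996), Lamc1 (-0.032 to 0.111) and Nid2 (-0.196 to 0.314). Averaged over cells, Hspg2 in endothelium against fibroblasts turned to -0.117 and Lamb1 in fibroblasts against pericytes was 0.290, and both then passed (exact sign-flip test, adjusted p = 0.0213). With a mouse left out this Lamb1 difference was -0.089 to 0.107. The difference of effects was -0.416 to 0.011 for Lama4 and -0.106 to 0.351 for Lama5 with a mouse left out. The difference in endothelial cell share was -11.6 to -8.25 percentage points with a mouse left out (exact p = 0.0571 without any 1 control and 0.0286 without any 1 ancrod mouse), and that in fibroblast share was 3.03 to 6.02 (6.02 without ancrod replicate 2, exact p = 0.0286). UMI shares with a mouse left out, which turned without control replicate 3, were -11.8 to 1.85 (Lama1), -0.254 to 0.043 (Lama2) and -7.02 to 2.22 (Lamb1) from endothelium and -2.68 to 14.4 (Lama1) and -2.52 to 16.2 (Lamb1) from fibroblasts, and the cell filter of the study gave 0.037 for Lama2 from endothelium. Beyond the mice left out, the cause of these changes was not tested. Depth limits members at few UMIs, such as Lama2 in endothelium.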
